A study of Arabidopsis thaliana with 30 samples.

Results

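The 35 aquaporin loci of Arabidopsis thaliana, 5 of the PIP1 and 8 of the PIP2 group, 10 TIP, 9 NIP and 3 SIP loci, were taken by locus identifier from the 27417 genes of the count table. Member names are written with a hyphen (PIP2-1), the form also printed with a semicolon in the field. They were followed in 30 RNA-seq libraries of Col-0 shoots, 3 libraries in each of 10 groups. Seedlings were kept 10 days on medium and 5 days in granular ceramic soil, then stood for 3 days in 10 mM ethanol (ethanol groups) or in water (water groups), after which watering ended. Shoots were harvested as watering ended, at 0 days after drought onset (DAD), and then at 1, 3, 5 and 7 DAD. All plants had the same genotype, and watering ended in both arms, the water controls included. The paper reports slower water loss in ethanol-treated plants under drought. Whether the arms were equally dry on a given day was not tested here. No library of a continuously watered plant was analysed here, so plant age and harvest day cannot be told apart from soil drying. Nothing in the labels says whether the 3 libraries of a group came from separate pots, so p-values measure the spread between these libraries, which may be in part technical.

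Aquaporins are channels of the major intrinsic protein family that let water, and in some members small solutes or gases, cross a membrane along its gradient. PIPs (plasma membrane intrinsic proteins) sit in the plasma membrane, where PIP2 proteins are strong water channels and PIP1 proteins, as known from maize, often reach the membrane only together with a PIP2 partner. TIPs (tonoplast intrinsic proteins) sit in the vacuolar membrane, NIPs (NOD26-like intrinsic proteins) carry boric acid and other small molecules, and SIPs (small basic intrinsic proteins) sit in the endoplasmic reticulum. In leaves they set a part of the conductance for water between veins and mesophyll, and their transcripts are known to respond to water deficit.

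Library totals ran from 3625884 to 14735127 counts. The filter on low counts kept 19249 genes, among them 27 of the 35 aquaporins. These were 5 of 5 PIP1, 8 of 8 PIP2, 7 of 10 TIP, 4 of 9 NIP and 3 of 3 SIP loci. The 8 loci that were not tested were TIP1-3 (AT4G01470), TIP2-3 (AT5G47450), TIP3-1 (AT1G73190), NIP1-1 (AT4G19030), NIP2-1 (AT2G34390), NIP3-1 (AT1G31885), NIP4-1 (AT5G37810) and NIP4-2 (AT5G37820), and the highest value of any of them in a library was 2.85 CPM. CPM, the usual counts-per-million scale, is the count of a gene over the TMM-scaled total of the tested genes. TIP3-2 (AT1G17810) passed the filter through the water 7 DAD libraries alone and TIP5-1 (AT3G47440) through 3 libraries of 7 DAD, so that both had to differ between days. Without them 25 loci were tested. Genes are called at a Benjamini-Hochberg adjusted p under 0.1 in a quasi-likelihood test of edgeR fitted to all 30 libraries. The 6 green shoot markers (such as RBCS1A and LHCB1.1) summed to 28530 to 64770 CPM in the groups other than water 7 DAD, and to 4268 to 7278 CPM in water 7 DAD. The 11 root markers summed to at most 6.96 CPM in any library.

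Between genes, levels are given as CPM per kilobase of exon, though whether counts of this protocol scale with length was not tested. At 0 DAD the leading aquaporins were vacuolar. TIP1-2 (AT3G26520) held the first place in water 0 DAD at 1262 ± 278 CPM per kb (SD, n = 3), followed by TIP2-1 (AT3G16240), PIP1-2 (AT2G45960), PIP2-1 (AT3G53420) and PIP2-7 (AT4G35100). The neighbours PIP1-2 and PIP2-1, at 560.4 ± 104 and 478 ± 85.2, differed by less than their spread. In ethanol 7 DAD the order began with PIP1-2 at 649 ± 24.1, TIP1-2 at 608 ± 185 and PIP2-1 at 561 ± 51.8 CPM per kb, and the spread of TIP1-2 covered both neighbours. In water 7 DAD it began with PIP1-4 at 463 ± 37.7, PIP1-2 at 317 ± 51.1 and PIP2-7 at 219 ± 31.2 CPM per kb, and TIP1-2 had dropped to 73.5 ± 10.9. The summed level of the TIPs was 1440 ± 233 CPM per kb in ethanol 7 DAD, against 2920 ± 471 in ethanol 0 DAD (SD, n = 3 each). In the water arm it was 273 ± 53.5 CPM per kb at 7 DAD, against 2527 ± 555 at 0 DAD. The 3 ethanol 7 DAD libraries lay between 1177 and 1622 CPM per kb and the 3 water 7 DAD libraries between 211.5 and 306.5. The water libraries of 7 DAD were thus below every other library in this sum, and 2 of the 3 ethanol libraries of 7 DAD lay within the range of both arms at 5 DAD, 1158 to 1591 CPM per kb.

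The PIP2 sum was 1182 ± 15.8 CPM per kb in ethanol 7 DAD, against 566 ± 62.3 in water 7 DAD. The PIP1 sum was 1302 ± 91.0 CPM per kb in ethanol 7 DAD, against 966 ± 72.2 in water 7 DAD. In plain CPM it was 2091 ± 153 in ethanol 7 DAD, against 1713 ± 100.1 in water 7 DAD. A single gene, PIP1-4 (AT4G00430), carried much of what remained of the PIP1 sum in water 7 DAD. It held 10.9% ± 2.48 of the PIP1 sum in ethanol 7 DAD, 48.3% ± 7.02 in water 7 DAD, and 6.96% to 11.5% on average in the other 8 groups. Without it the PIP1 sum was 1159 ± 70.5 CPM per kb in ethanol 7 DAD and 503 ± 103 in water 7 DAD. TIPs made up 35.3% ± 4.48 of all aquaporin CPM per kb in ethanol 7 DAD and 14.1% ± 1.66 in water 7 DAD, against 53.1% ± 2.17 in ethanol 0 DAD and 50.4% ± 1.73 in water 0 DAD. PIP2 members made up 29.1% ± 1.02 in ethanol 7 DAD and 29.3% ± 0.926 in water 7 DAD, against 21.1% ± 0.566 in ethanol 0 DAD and 22.1% ± 1.09 in water 0 DAD. PIP1 members made up 32.1% ± 3.25 in ethanol 7 DAD and 50.1% ± 2.12 in water 7 DAD, against 23.7% ± 1.25 in ethanol 0 DAD and 25.1% ± 0.339 in water 0 DAD. At 3 DAD every ethanol library lay below every water library in the 3 sums, at 1450 to 1720 against 1794 to 2081 CPM per kb for the TIPs, 877 to 937 against 962 to 1050 for the PIP2 and 1002 to 1089 against 1106 to 1156 for the PIP1 members. How many of all genes lay apart in this way at 3 DAD was not counted. At 0 and 5 DAD the means of the 3 sums ran the other way. At 5 DAD they were 1452 in ethanol against 1262 in water for the TIPs, 1054 against 992 for the PIP2 and 1119 against 1096 for the PIP1 members. These sums describe the libraries and were not tested, and no single aquaporin was called between the arms at 3 DAD.

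**Figure D1:**
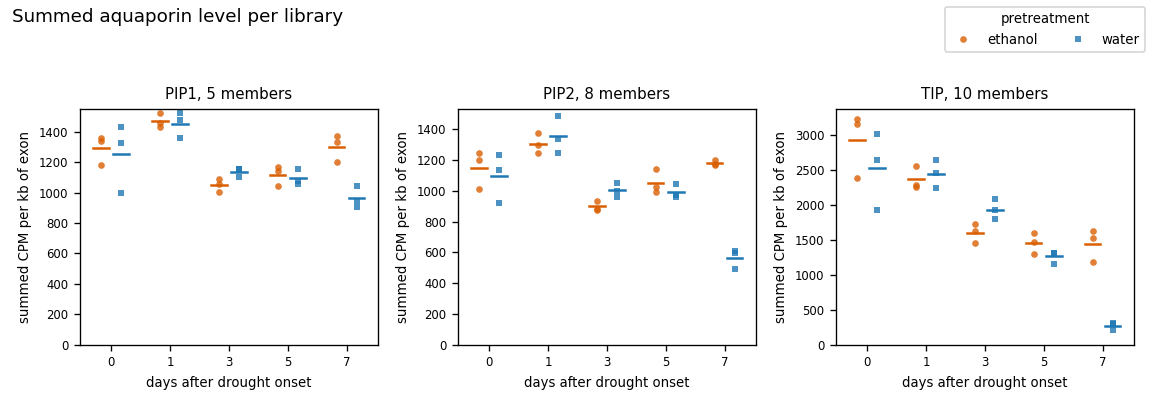
Summed CPM per kilobase of exon of the PIP1, PIP2 and TIP members in each library, by days after drought onset; circles are ethanol and squares water libraries, and bars are group means. The TIP sum averages 1440 in ethanol 7 DAD and 273 in water 7 DAD. At 3 DAD the ethanol libraries lie below the water libraries in each sum, at 1450 to 1720 against 1794 to 2081 for the TIPs. At 0 and 5 DAD the group means of each sum are higher in ethanol. The sums were not tested, and no aquaporin was called between the arms at 3 DAD.

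The first question was whether the ethanol pretreatment altered aquaporin transcripts before or during the early days of drying. No aquaporin was called between ethanol and water at 0, 1, 3 or 5 DAD. Over all genes 1.71% were called at 0 DAD, 0% at 1 DAD, 0.992% at 3 DAD and 0% at 5 DAD. An unadjusted p under 0.05 was reached by 1 aquaporin at 0 DAD, 1 at 1 DAD, 2 at 3 DAD and 0 at 5 DAD, and the DESeq2 Wald test also called 0 aquaporins on each of these days. Among the 21 members with a mean of at least 100 counts, the log2 fold change of ethanol over water ran between -0.38 and 0.37 at 0 DAD and between -0.16 and 0.25 at 1 DAD. At 3 DAD it ran between -0.47 and 0.64 and at 5 DAD between -0.37 and 0.40, with standard errors of 0.11 to 0.32 over the 4 days.

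Each arm was then compared with its own 0 DAD. Of the members called in at least 1 arm, 3 of 11 were called in the same direction in both at 1 DAD, 5 of 11 at 3 DAD and 8 of 9 at 5 DAD, and 0 were called in opposite directions. Such overlap between the arms, here and at 7 DAD, was not counted over all genes. Whether it is particular to aquaporins is therefore not known. Whether the responses differed between the arms on these days was not tested. At 1 DAD, 6 aquaporins were higher and 2 lower in ethanol than at ethanol 0 DAD, beside 9.35% of all genes called higher and 8.9% called lower. In the water arm 6 were higher and 0 lower, beside 5.81% and 7.07% of all genes. TIP2-1, lower in ethanol, was not called in water at 1 DAD (-0.55, SE 0.22, adjusted p = 0.131). The boric acid channel NIP6-1 (AT1G80760), known from the nodes of young shoots, rose most in ethanol. It had 49.0, 35.4 and 42.1 CPM in ethanol 1 DAD, against 12.0, 15.8 and 16.6 in ethanol 0 DAD (log2 fold change 1.49, SE 0.22). In water it had 42.7, 30.5 and 47.7 CPM at 1 DAD, against 17.1, 18.7 and 22.9 at 0 DAD (1.05, SE 0.21). The libraries of 1 DAD lay above those of 0 DAD in both arms. PIP1-2 and PIP2-1, the most abundant PIP of each group, also rose in both arms at 1 DAD, with log2 fold changes of 0.37 (SE 0.12) and 0.44 (SE 0.15) in ethanol, and of 0.35 (SE 0.12) and 0.61 (SE 0.15) in water. Without water 0 DAD replicate 1, or without water 1 DAD replicate 3, 3 members were called in water in place of 6, and PIP1-2 was among those lost in each. In ethanol 4 members were called in place of 8 where replicate 1 of 0 DAD was left out, and PIP1-2 and PIP2-1 were among those lost. Leaving out replicate 3 of ethanol 1 DAD gave 5, again with PIP2-1 lost.

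At 3 DAD, 2 aquaporins were higher and 9 lower in ethanol than at ethanol 0 DAD, beside 13% and 11.6% of all genes. In water 1 was higher and 4 were lower, beside 9.25% and 10.4%. At 5 DAD 3 were higher and 6 lower in ethanol, beside 16.8% and 16.4% of all genes, and 2 were higher and 6 lower in water, beside 16.2% and 16.8%. With library totals 2 were higher and 3 lower in water 3 DAD, and 7 were higher and 6 lower in each arm at 5 DAD. The same 6 members were lower in both arms at 5 DAD, namely PIP1-3 (AT1G01620), PIP1-5 (AT4G23400), PIP2-7, TIP1-2, TIP2-1 and SIP1-2 (AT5G18290). NIP5-1 (AT4G10380), the boric acid channel best known from roots, and PIP2-5 (AT3G54820) were higher in both arms. With 1 library left out at a time, PIP2-5 in ethanol 5 DAD lost its call in 4 of 6 fits. Of the counts at 3 and 5 DAD, that of ethanol 3 DAD moved by over 1.5 times with a library left out, to 7 without ethanol 3 DAD replicate 3. TIP1-1 (AT2G36830) in water 3 DAD lost its call in 5 of 6 such fits.

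TIP2-1, a tonoplast channel that carries ammonia as well as water, was lower than at 0 DAD in both arms at 3, 5 and 7 DAD, and in ethanol already at 1 DAD (-0.89, SE 0.22). It had 282, 341 and 370 CPM in ethanol 5 DAD, against 1002, 1434 and 1431 in ethanol 0 DAD (log2 fold change -1.96, SE 0.23). In water it had 221, 316 and 296 CPM at 5 DAD, against 708, 1028 and 1248 at 0 DAD (-1.84, SE 0.23). No library of 5 DAD came near those of 0 DAD in either arm. At 3 DAD the log2 fold change of TIP2-1 was already -2.0 (SE 0.23) in ethanol and -1.15 (SE 0.22) in water. TIP1-2, a major vacuolar water channel of vegetative tissue, had a log2 fold change of -0.90 (SE 0.17) in ethanol and -0.98 (SE 0.17) in water at 5 DAD. PIP1-3 had -0.998 (SE 0.13) in ethanol and -1.01 (SE 0.13) in water. NIP5-1 rose to 20.8, 25.7 and 23.4 CPM in ethanol 5 DAD, against 9.84, 5.54 and 8.09 in ethanol 0 DAD (1.57, SE 0.27). In water it had 21.7, 25.9 and 14.69 CPM at 5 DAD, against 5.43, 6.50 and 7.60 at 0 DAD (1.67, SE 0.26), again with no overlap.

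From 5 to 7 DAD the arms parted. In water 6 aquaporins were higher and 15 lower at 7 DAD than at 5 DAD, beside 31.8% of all genes called higher and 32.7% called lower. Without TIP3-2 and TIP5-1, 4 of 25 were higher and 15 lower. In ethanol 2 were higher and 0 lower, beside 5.34% and 3.16% of all genes. Those 2 were PIP2-3 (AT2G37180), with a log2 fold change of 0.97 (SE 0.30), and PIP2-7, with 0.48 (SE 0.13). The count in ethanol was 0 where replicate 2 of ethanol 5 DAD was left out and 5 where replicate 3 of ethanol 7 DAD was left out. It was 1 where replicate 1 of ethanol 5 DAD, or replicate 1 or 2 of ethanol 7 DAD, was left out, and an unadjusted p under 0.05 was reached by 5 members. Among the 21 members with a mean of at least 100 counts, the largest falls of this last step in water were those of TIP2-2 (AT4G17340), at -4.05 (SE 0.16), TIP1-2, at -3.12 (SE 0.19), and PIP2-2 (AT2G37170), at -2.82 (SE 0.20).

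At 7 DAD, 17 of the 27 tested aquaporins were higher and 5 lower in ethanol than in water, beside 32% of all genes called higher and 28.6% called lower. The 17 higher were 4 of 5 PIP1, 6 of 8 PIP2, 5 of 7 tested TIP, 1 of 4 tested NIP and 1 of 3 SIP members. The median log2 fold change was 1.35 over the PIP1 and 1.60 over the PIP2 members, and 0.05 over all genes. The TIPs, 2 of which had to differ between days, are given by member below. Without the 2 members that passed the filter through 3 libraries alone, 17 of 25 were higher and 4 lower. Among the called members the groups overlapped for PIP2-4 (AT5G60660) and SIP2-1 (AT3G56950). The share of called genes with overlapping groups was not counted over all genes. Scaling by library totals moved the median of all genes to 0.26 and the split of the called members to 19 higher and 3 lower.

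The water arm had moved far from its start by then. Against water 0 DAD, 7 aquaporins were higher and 17 lower in water 7 DAD, beside 34.5% and 35.5% of all genes. Without TIP3-2 and TIP5-1, 5 of 25 were higher and 17 lower. Against ethanol 0 DAD, 7 were higher and 6 lower in ethanol 7 DAD, beside 22% and 19.5% of all genes, and 6 of 25 were higher and 6 lower without TIP3-2 and TIP5-1. With library totals the split in ethanol was 10 higher and 5 lower. The median log2 fold change from 0 to 7 DAD over the PIP1 and PIP2 members was 0.22 and 0.16 in ethanol, and -0.86 and -1.37 in water. Over all genes it was 0.02 in ethanol and -0.01 in water. TIP3-2 and TIP5-1 had to differ between days, so the TIPs are given by member below. All 6 members lower in ethanol at 7 DAD were also lower in water, whereas PIP1-1 (AT3G61430), NIP6-1 and SIP2-1 were called in opposite directions, higher in ethanol and lower in water. A further 8 members lower in water were not called in ethanol.

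**Figure D2:**
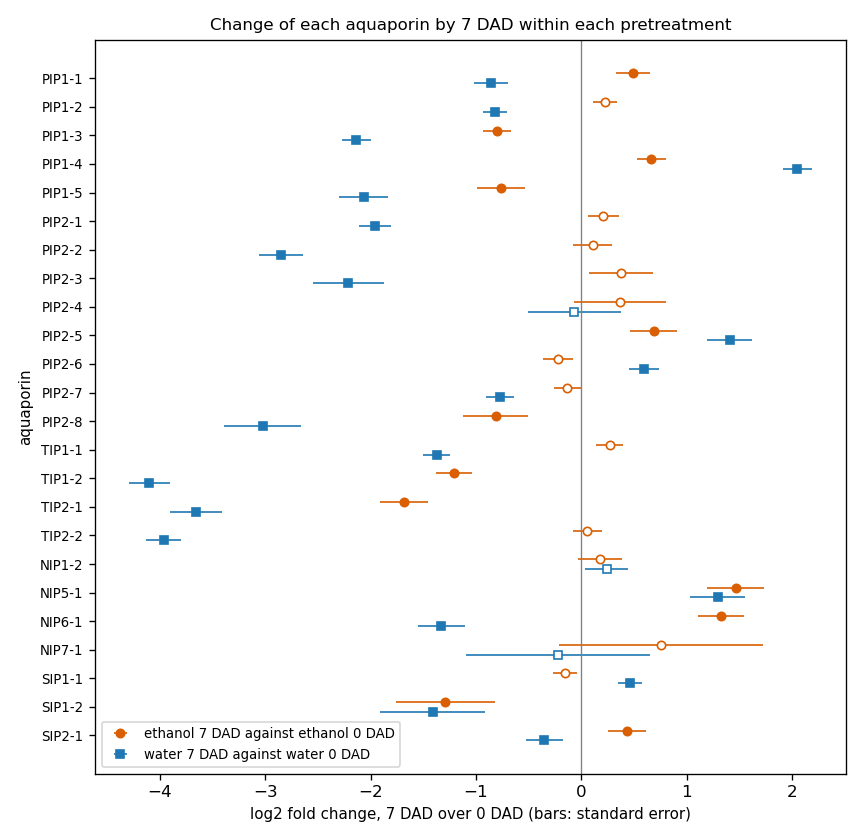
Log2 fold change of 7 DAD over 0 DAD within each arm, ethanol circles above water squares, for 24 tested aquaporins (bars are standard errors, filled symbols are called, and TIP3-2, TIP4-1 and TIP5-1, with few counts, are left out). TIP1-2, TIP2-1 and TIP2-2 lie at -4.10, -3.65 and -3.96 in water and at -1.21, -1.69 and 0.06 in ethanol, and PIP1-4 is highest in water at 2.05.

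The difference between the arms in this change was tested by itself, as the response of ethanol minus that of water. It was called for 20 of the 27 aquaporins, 15 with a higher and 5 with a lower response in ethanol, beside 27.6% of all genes called higher and 23.2% called lower. Without TIP3-2 and TIP5-1, 15 of 25 had a higher and 4 a lower response. The comparisons of 7 DAD, between the arms and within the water arm, share the water 7 DAD libraries with it, so they are not separate evidence of one another.

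Among the PIP1 members, 4 were higher in ethanol than in water at 7 DAD and PIP1-4 was lower. PIP1-2, which is permeable to carbon dioxide as well as water and was the most abundant PIP1 at 0 DAD, had 1079, 1025 and 1005 CPM in ethanol 7 DAD, against 513, 422 and 585 in water 7 DAD (log2 fold change 1.03, SE 0.12, edgeR adjusted p = 1.45e-08). PIP1-1 had 338, 422 and 309 CPM in ethanol, against 141, 99.7 and 178 in water (1.35, SE 0.16, adjusted p = 3.23e-08). All ethanol libraries were above all water libraries for both genes. In the ethanol arm PIP1-1 was itself above 0 DAD (log2 fold change 0.49, SE 0.16), a call that was lost without ethanol 7 DAD replicate 2 (0.34), and PIP1-2 was not called (0.22, SE 0.12). In the water arm both fell, by 0.86 (SE 0.16) and 0.82 (SE 0.12) on the log2 scale.

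PIP1-3 and PIP1-5 fell in both arms by 7 DAD but less in ethanol. PIP1-3 had 290, 279 and 249.7 CPM in ethanol 7 DAD, against 87.2, 75.9 and 125 in water 7 DAD (log2 fold change 1.504, SE 0.14, adjusted p = 1.72e-10). PIP1-5 had 178, 121 and 120.4 CPM in ethanol, against 45.7, 29.99 and 59.6 in water (1.62, SE 0.23, adjusted p = 8.09e-07). The arms did not overlap at 7 DAD for either gene. Within ethanol, the PIP1-5 libraries of 7 DAD overlapped those of 0 DAD, which had 164, 250 and 296 CPM. Against 0 DAD, PIP1-3 changed by -0.80 (SE 0.13) in ethanol and -2.14 (SE 0.14) in water, and PIP1-5 by -0.76 (SE 0.22) and -2.07 (SE 0.23) in the same order. The response of ethanol minus water was 1.34 (SE 0.19) for PIP1-3 and 1.303 (SE 0.32) for PIP1-5.

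PIP1-4, which has been shown to carry hydrogen peroxide, went the other way. It had 242, 377 and 239.5 CPM in ethanol 7 DAD, against 885, 1013 and 879.9 in water 7 DAD (log2 fold change -1.69, SE 0.14, adjusted p = 1.82e-11). At 0 DAD it had 159, 194 and 189 CPM in ethanol and 201, 218 and 253 in water. The water 7 DAD libraries were far above all others, and ethanol 7 DAD replicate 2 stood above the other libraries of its group. The rise from 0 DAD was 0.66 (SE 0.13) on the log2 scale in ethanol and 2.05 (SE 0.14) in water. Without ethanol 7 DAD replicate 2 it was 0.41 in ethanol, still called. In water 7 DAD, PIP1-4 was the most abundant aquaporin per kilobase, at 463 ± 37.7 CPM per kb, above PIP1-2 at 317 ± 51.1 (SD, n = 3 each).

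**Figure D3:**
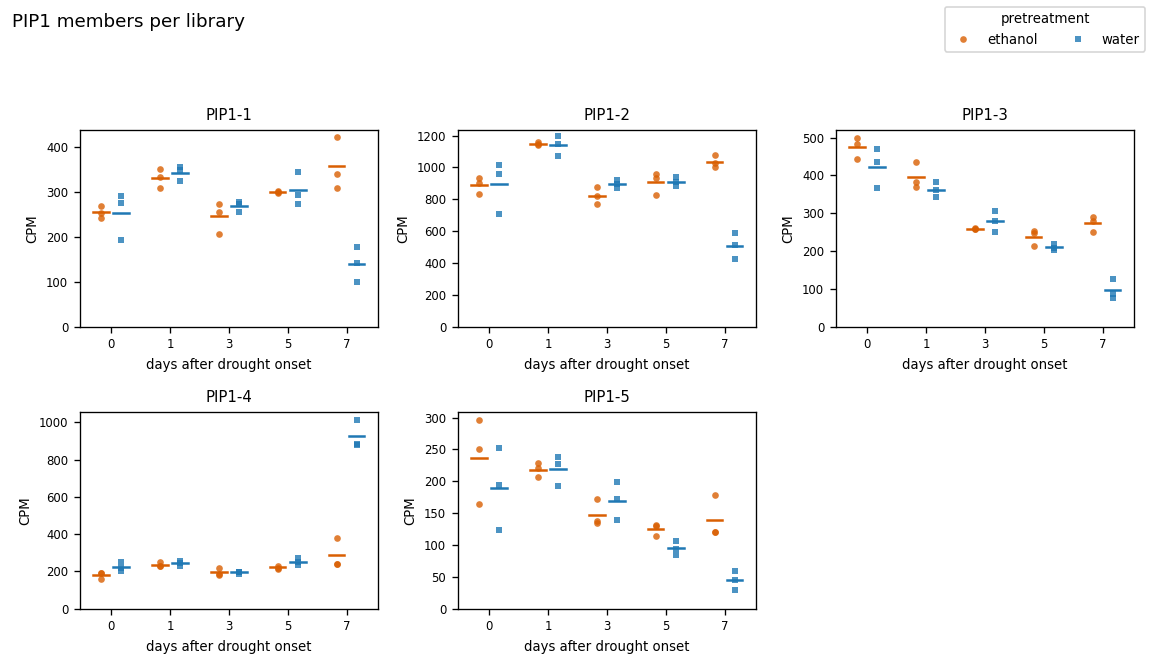
CPM of the 5 PIP1 members in each library, by days after drought onset; circles are ethanol and squares water libraries, and bars are group means. At 7 DAD PIP1-4 lies at 239.5 to 377 in ethanol and at 879.9 to 1013 in water, while the other 4 members are higher in ethanol.

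Of the PIP2 members, 6 were higher and 2 lower in ethanol than in water at 7 DAD. PIP2-1, a plasma membrane water channel that the kinase OST1 phosphorylates in guard cells, had 805, 874 and 967 CPM in ethanol 7 DAD, against 199, 144 and 237 in water 7 DAD (log2 fold change 2.19, SE 0.15, adjusted p = 1.03e-12). It had 641, 806 and 845 CPM in ethanol 0 DAD and 603, 787 and 864 in water 0 DAD. The ethanol libraries of 7 DAD thus stood with those of 0 DAD, and the water libraries of 7 DAD below all of them. Within ethanol the change from 0 DAD was 0.21 (SE 0.15) and not called, and within water it was -1.96 (SE 0.15).

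PIP2-2, a contributor to root water uptake, had 123, 117 and 102 CPM in ethanol 7 DAD, against 15.5, 10.05 and 22.2 in water 7 DAD (log2 fold change 2.82, SE 0.20, adjusted p = 2.50e-12). PIP2-3, known as RD28 from its isolation from desiccated plants, had 24.9, 34.2 and 17.3 CPM in ethanol, against 5.88, 2.23 and 3.08 in water (2.74, SE 0.34, adjusted p = 7.27e-08). The arms did not overlap for either gene. These 2 neighbours are 90.7% identical over 988 bases of transcript, and 11.48% of the windows of 100 bases of PIP2-2 and 12.8% of those of PIP2-3 occur unchanged in the other. How the reads of such stretches were shared between them is uncertain. No other tested member shared such a window with another transcript.

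PIP2-8 (AT2G16850), a low-level plasma membrane member, had 11.48, 9.43 and 14.8 CPM in ethanol 7 DAD, against 4.08, 1.44 and 1.03 in water 7 DAD (log2 fold change 2.43, SE 0.37, adjusted p = 2.07e-06). Its log2 fold change was 3.32 without water 7 DAD replicate 1. In water it was -3.02 (SE 0.37) against 0 DAD, or -3.92 without that library. In ethanol it was -0.81 (SE 0.31), a call lost without ethanol 0 DAD replicate 2, ethanol 0 DAD replicate 3 or ethanol 7 DAD replicate 2. PIP2-7, which binds the syntaxin SYP121 and the stress protein TSPO, had 705, 508 and 531 CPM in ethanol, against 359, 297 and 396 in water (0.73, SE 0.13, adjusted p = 2.14e-05). No ethanol library overlapped a water library in these 2 genes. PIP2-4, known mainly from roots, had 10.9, 6.73 and 4.74 CPM in ethanol and 2.40, 2.71 and 5.93 in water (1.00, SE 0.43, adjusted p = 0.0517). Its groups overlapped, and its call was lost without ethanol 7 DAD replicate 1 (0.64), water 7 DAD replicate 1 (0.78) or water 7 DAD replicate 2 (0.85).

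The 2 PIP2 members that were lower in ethanol were those that rose in water. PIP2-6 (AT2G39010), a leaf member expressed along the veins, had 231, 336 and 248 CPM in ethanol 7 DAD, against 445, 404 and 345 in water 7 DAD (log2 fold change -0.55, SE 0.14, adjusted p = 0.00176). PIP2-5 had 24.3, 25.0 and 21.5 CPM in ethanol, against 33.2, 30.6 and 43.9 in water (-0.61, SE 0.21, adjusted p = 0.0142). The libraries of the arms lay apart, by a narrow margin in PIP2-6. Without water 7 DAD replicate 3 PIP2-5 was not called (-0.44). Against 0 DAD, PIP2-6 changed by -0.22 (SE 0.14) in ethanol and 0.59 (SE 0.14) in water, and PIP2-5 by 0.68 (SE 0.22) in ethanol, not called without ethanol 0 DAD replicate 3 (0.44), and 1.41 (SE 0.22) in water. The difference of these responses was -0.81 (SE 0.20) for PIP2-6 and -0.72 (SE 0.31) for PIP2-5. For PIP2-5 that call was lost in 4 of 12 fits with 1 library left out, and the difference was -0.25 without ethanol 0 DAD replicate 1.

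**Figure D4:**
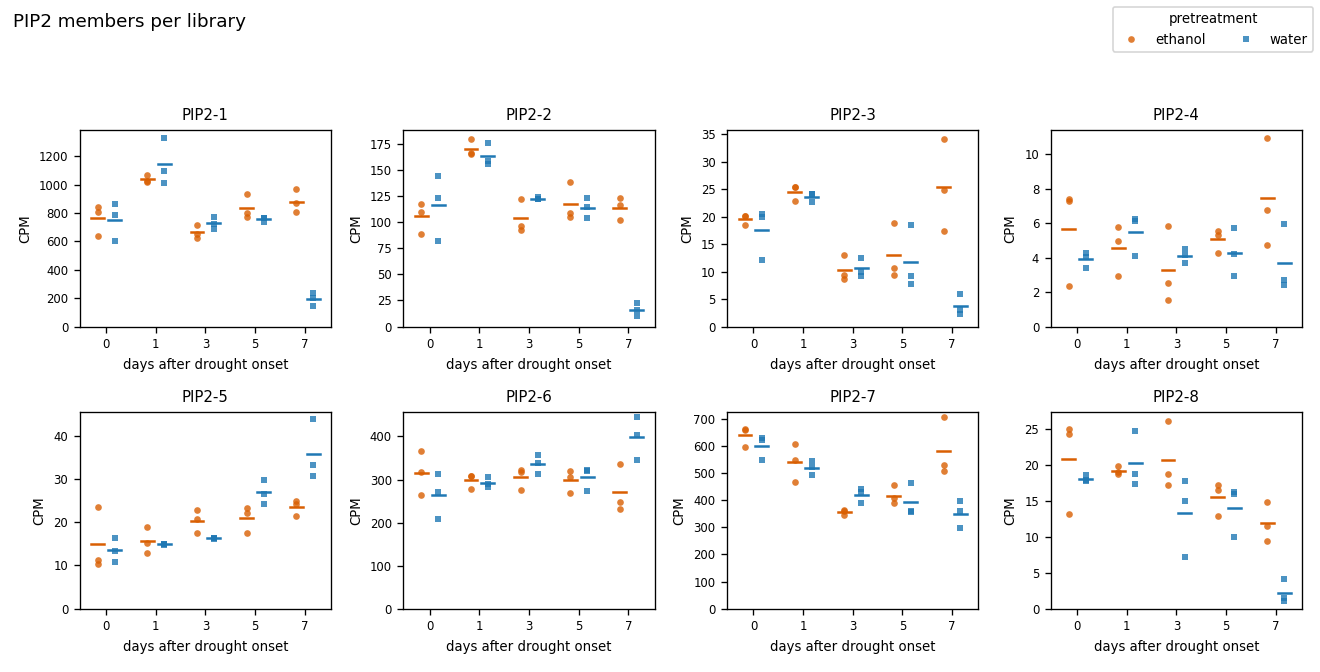
CPM of the 8 PIP2 members in each library, by days after drought onset; circles are ethanol and squares water libraries, and bars are group means. PIP2-1 lies at 805 to 967 in ethanol 7 DAD and at 144 to 237 in water 7 DAD, and PIP2-5 and PIP2-6 are the members that are higher in water.

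Of the TIPs, TIP2-2 and TIP1-2 had the largest differences among members with a mean of at least 100 counts. TIP2-2, a vacuolar relative of TIP2-1, had 247, 184 and 199 CPM in ethanol 7 DAD, against 12.8, 11.3 and 8.55 in water 7 DAD (log2 fold change 4.27, SE 0.16, adjusted p = 1.79e-17). It had 173, 226 and 207 CPM in ethanol 0 DAD and 133, 175 and 202 in water 0 DAD. The ethanol libraries of 7 DAD overlapped those of 0 DAD, and the water libraries of 7 DAD lay far below all of them. Up to 5 DAD the gene had not fallen in water, with 187, 181 and 172 CPM at 5 DAD. Its change from 0 DAD was 0.06 (SE 0.14) in ethanol and -3.96 (SE 0.16) in water, and the difference of these responses was 4.02 (SE 0.21).

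TIP1-2 had 725, 579 and 1046 CPM in ethanol 7 DAD, against 100.4, 78.8 and 105 in water 7 DAD (log2 fold change 3.04, SE 0.19, adjusted p = 7.15e-14). TIP2-1 had 485, 304 and 413 CPM in ethanol, against 98.7, 45.9 and 91.5 in water (2.34, SE 0.24, adjusted p = 1.48e-09). TIP1-1, which with TIP1-2 makes up the main vacuolar water channels of vegetative cells, had 454, 413 and 388 CPM in ethanol, against 155, 124 and 153 in water (1.54, SE 0.13, adjusted p = 4.67e-11). No ethanol library overlapped a water library in these 3 genes, and ethanol 7 DAD replicate 2 was the lowest of its group in TIP1-2 and TIP2-1. Against ethanol 0 DAD, TIP1-2 changed by -1.21 (SE 0.17) and TIP2-1 by -1.69 (SE 0.23), so both were lower at 7 DAD in ethanol as well, while TIP1-1 was not called (0.27, SE 0.13). Against water 0 DAD the changes were -4.10 (SE 0.19), -3.65 (SE 0.25) and -1.37 (SE 0.13) for TIP1-2, TIP2-1 and TIP1-1.

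The remaining TIPs had few counts and are given by their counts over the 3 libraries of a group. TIP4-1 (AT2G25810), known mainly from roots, had 33 counts in ethanol 7 DAD and 1 in water 7 DAD, a ratio of CPM of 25.95 with an exact 95% interval of 4.34 to 1056 that covers counting error only. Against water 0 DAD, with 22 counts, its call was lost without water 0 DAD replicate 1. TIP3-2, a channel of the protein storage vacuoles of seeds, had 0 counts in ethanol 7 DAD and 178 in water 7 DAD, with 4.68, 2.71 and 13.9 CPM in the water libraries. Over the pooled counts, the water 7 DAD level was 75.5 times a limit of 3 counts in ethanol 7 DAD. Water 7 DAD replicate 3 held 122 of the 178 counts. This gene passed the filter through these water libraries alone, so a difference was built in and is no test. TIP3-2 was not called by the DESeq2 Wald test. Its close relative TIP3-1, which was not tested, had 0 counts in ethanol 7 DAD and 30 in water 7 DAD, with 2.85 CPM in the highest library. TIP5-1, known from pollen, had 33 counts in ethanol 7 DAD and 37 in water 7 DAD, and was called higher than at 0 DAD in both arms, with 1 count in ethanol 0 DAD and 2 in water 0 DAD. Its call in ethanol was lost without ethanol 0 DAD replicate 1 or 2.

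Marker genes were read beside these low members. The 10 seed markers summed to 0.0862 to 1.23 CPM in ethanol 7 DAD and to 1.71 to 5.26 CPM in water 7 DAD, and none of them passed the filter. The oleosin OLEO2 made up most of that sum in water 7 DAD, at 2.6 CPM on average, and the cruciferins CRA1, CRB and CRC were at 0 there. The 7 anther and pollen markers summed to 69.3 to 114 CPM in ethanol 7 DAD and to 93.5 to 145 CPM in water 7 DAD, against 2.73 to 6.09 in ethanol 0 DAD and 1.64 to 3.84 in water 0 DAD. Their part in TIP5-1 was not tested. All 6 green shoot markers were called higher in ethanol than in water at 7 DAD, beside 32% of all genes. They moved in the same direction as TIP1-1, TIP1-2, TIP2-1 and TIP2-2, and their part in these differences was not tested. In bulk shoots, fewer cells of a type and less RNA per cell cannot be told apart.

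**Figure D5:**
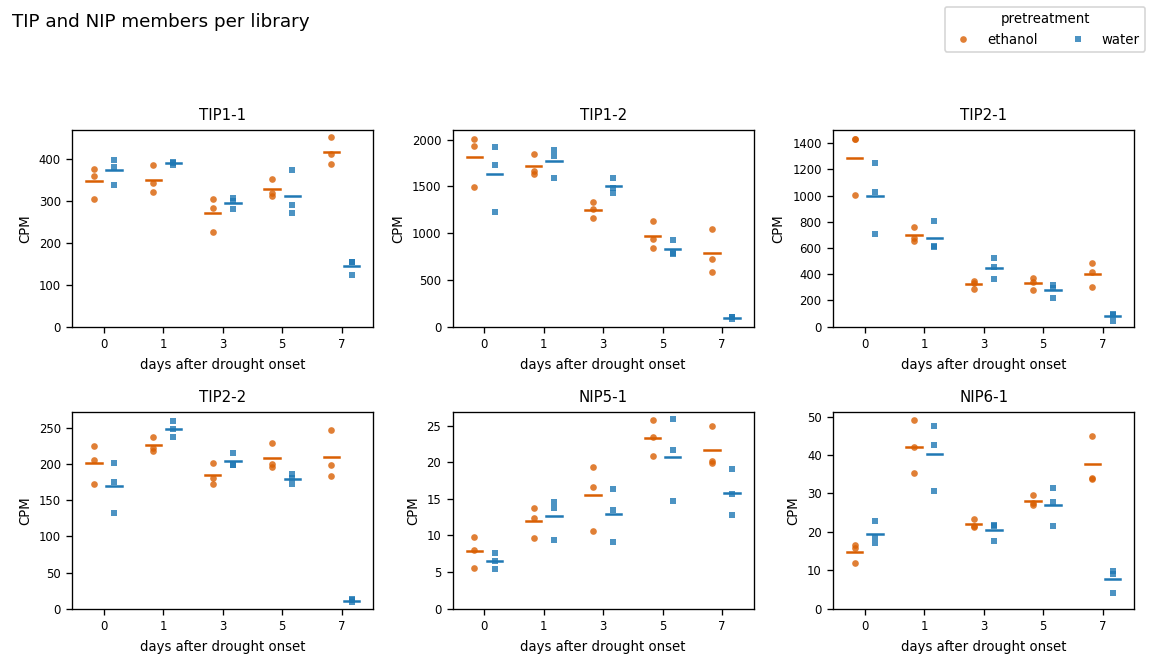
CPM of 4 TIP and 2 NIP members in each library, by days after drought onset; circles are ethanol and squares water libraries, and bars are group means. TIP2-2 stays at 133 or more in water up to 5 DAD and lies at 8.55 to 12.8 in water 7 DAD, against 184 to 247 in ethanol 7 DAD.

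Of the NIPs, NIP6-1 alone was called between the arms at 7 DAD. It had 45.1, 33.7 and 34.1 CPM in ethanol, against 8.997, 4.15 and 9.80 in water, with no overlap (log2 fold change 2.27, SE 0.22, adjusted p = 1.11e-09). From 0 DAD it rose by 1.33 (SE 0.22) on the log2 scale in ethanol and fell by 1.33 (SE 0.23) in water, so that the responses differed by 2.65 (SE 0.31). NIP5-1 stayed above 0 DAD in both arms, by 1.46 (SE 0.27) in ethanol and 1.29 (SE 0.26) in water, and was not called between them (0.44, SE 0.25, adjusted p = 0.129). NIP1-2 (AT4G18910) and NIP7-1 (AT3G06100) were not called in any comparison at 7 DAD. Their log2 fold changes of ethanol over water were -0.03 (SE 0.20) and -0.15 (SE 0.89).

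The SIPs, of the endoplasmic reticulum, had small differences. SIP1-1 (AT3G04090) had 83.6, 83.8 and 71.4 CPM in ethanol 7 DAD, against 109.5, 112 and 99.6 in water 7 DAD, without overlap (log2 fold change -0.43, SE 0.11, adjusted p = 0.00214). This call was lost with library totals (-0.22). SIP2-1 had 32.4, 25.8 and 23.1 CPM in ethanol, against 17.9, 17.9 and 23.8 in water (0.44, SE 0.17, adjusted p = 0.0306). Its groups overlapped and its call was lost without ethanol 7 DAD replicate 1 (0.32). SIP1-2 was lower at 7 DAD than at 0 DAD in both arms, at -1.29 (SE 0.47) in ethanol and -1.41 (SE 0.50) in water, and was not called between them (0.84, SE 0.50). The call of SIP1-2 in ethanol was lost without ethanol 7 DAD replicate 1. Against 0 DAD, SIP2-1 was at 0.43 (SE 0.18) in ethanol, lost without ethanol 0 DAD replicate 3 or ethanol 7 DAD replicate 1, and at -0.35 (SE 0.17) in water, lost without water 0 DAD replicate 2, water 7 DAD replicate 1 or water 7 DAD replicate 2.

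Genes that act with aquaporins were read from 4 lists, and their counts stand beside 32% of all genes called higher and 28.6% called lower in ethanol than in water at 7 DAD. Of 13 PIP partners (SNAREs, kinases and turnover factors), 3 were higher and 8 lower in ethanol than in water at 7 DAD, with a median log2 fold change of -0.74. TSPO and UBC32, both factors of PIP turnover, had the largest differences of the list. TSPO, a membrane protein that takes PIP2-7 to degradation, averaged 59.2 CPM in ethanol 7 DAD and 2343 CPM in water 7 DAD (log2 fold change -5.32, SE 0.66). UBC32, a ubiquitin-conjugating enzyme that acts on PIPs with RMA1, averaged 92.7 CPM in ethanol and 460.4 CPM in water (-2.32, SE 0.28). The kinase OST1 averaged 20.6 CPM in ethanol and 55.0 CPM in water (-1.42, SE 0.19). The receptor kinases SIRK1 and QSK1, which act on PIPs, were higher in ethanol, at 1.77 (SE 0.25) and 0.86 (SE 0.25) on the log2 scale, and so was the ubiquitin ligase RMA2 (1.11, SE 0.19). Before 7 DAD, 0 partners were called between ethanol and water on any day. The share of all genes called never exceeded 1.71% on those days, so this does not set the partners apart from other genes.

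Of the 3 boron transporters, which export boron that NIPs let in, 2 were higher in ethanol at 7 DAD and 0 lower, beside 32% and 28.6% of all genes. BOR1 averaged 35.5 CPM in ethanol 7 DAD and 7.48 CPM in water 7 DAD (log2 fold change 2.24, SE 0.19). BOR2 had 1.80 (SE 0.61). Of the 4 plasma membrane proton pumps, 2 were higher (AHA2 and AHA11) and 1 was lower, AHA3, averaging 144.5 CPM in ethanol 7 DAD and 661 CPM in water 7 DAD (-2.19, SE 0.16). Of the 3 tonoplast proton pump genes, VHP1 was higher (0.28, SE 0.10) and the subunits VHA-a2 and VHA-a3 were lower, at -1.56 (SE 0.16) and -1.06 (SE 0.12). The genes of the tonoplast pumps, with a median of -1.06, thus did not move as a list in the direction of the abundant TIPs. TIP1-1, TIP1-2, TIP2-1 and TIP2-2 ran from 1.54 to 4.27.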

How the data were processed

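Shoots of Arabidopsis Col-0 were profiled by Lasy-Seq, which primes from the poly(A) tail. The authors trimmed read 1 with Trimmomatic, aligned it with HISAT2 to TAIR10 and counted reads per gene on the stranded gene features, introns included, with featureCounts; the deposited counts are whole numbers and are not normalized. The deposited signal values are the counts divided by a size factor of DESeq2, checked against the counts, and were not used in any test.

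Genes were filtered with filterByExpr of edgeR 4.0.16 (R 4.3.3), which needs 1.147 CPM at the median library total in 3 libraries, and scaled by TMM (factors 0.915 to 1.16). One quasi-likelihood model with 10 group means was fitted to all 30 libraries (20 residual degrees of freedom), and Benjamini-Hochberg adjustment ran over 19249 genes. A call is an adjusted p under 0.1, the threshold of the study. The standard error is the log2 fold change over the root of F. Levels between genes are per kilobase of exon of the RefSeq annotation of TAIR10.1; whether counts of this protocol scale with length was not tested. Groups came from the labels. All 22 members called at 7 DAD are named with their values, other members where called on another day, in ranges otherwise. Members and lists were chosen with earlier results of these data known. The script was tested on simulated data. Alternatives were DESeq2 1.42.0 size factors and its Wald test, library totals, no filter, a fit to the compared groups alone, a replicate block, an adjusted p under 0.05 and each library left out. Intervals cover counting error only, and a group at 0 is compared at a floor of 3 counts over its 3 libraries. Promoter motifs and protein sequences were not analysed here.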

Additional observations from a re-analysis of the deposited data

Results flagged for a closer look

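For 19 aquaporins the change from 0 to 7 DAD differed between the arms by a test of the difference itself, the response of ethanol minus that of water (edgeR quasi-likelihood test with Benjamini-Hochberg adjustment). Over all genes 27.6% were called with a higher and 23.2% with a lower response in ethanol. All values are on the log2 scale. Among the PIP1 members it was 1.35 for PIP1-1, 1.04 for PIP1-2, 1.33 for PIP1-3, 1.303 for PIP1-5 and -1.38 for PIP1-4. Among the PIP2 members it was 2.16 for PIP2-1, 2.96 for PIP2-2, 2.58 for PIP2-3, 0.64 for PIP2-7, 2.21 for PIP2-8, -0.72 for PIP2-5 and -0.81 for PIP2-6. Among the TIPs it was 1.64 for TIP1-1, 2.89 for TIP1-2, 1.97 for TIP2-1 and 4.02 for TIP2-2. It was 2.65 for NIP6-1, -0.61 for SIP1-1 and 0.78 for SIP2-1. TIP3-2 was called as well, but it held 0 counts in ethanol 7 DAD and its fitted value is not given. For PIP2-8 the value was 3.10 without water 7 DAD replicate 1, and PIP2-5 lost its call in 4 of 12 fits with a library left out, with -0.25 where replicate 1 of ethanol 0 DAD was left out.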

How the results depend on the processing

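No member called in a comparison changed direction under any alternative. Of the 22 members called between ethanol and water at 7 DAD, 17 were called under all alternatives, and of those of water 7 against 0 DAD, ethanol 7 against 0 DAD and the difference of responses 21 of 24, 7 of 13 and 18 of 20. With each library left out in turn, the counts of members called in these 4 comparisons ran from 20 to 22, 23 to 24, 11 to 14 and 18 to 21, and 19 to 22 for water 7 against 5 DAD. At 1 DAD they ran from 3 to 7 in water and 4 to 7 in ethanol, and at 3 DAD from 7 to 10 in ethanol. In ethanol at 1 DAD 5 members passed an adjusted p under 0.05. In water at 5 DAD 13 were called with library totals, 7 higher and 6 lower. For ethanol 7 against 5 DAD, with 2 called, the count was 4 with DESeq2 size factors, library totals or the DESeq2 Wald test, 1 at an adjusted p under 0.05, 0 in the compared groups alone, and 0 to 5 with a library left out. Why these counts moved was not tested. Library totals moved the median of all genes to 0.26 (from 0.05) between ethanol and water at 7 DAD and to 0.24 in ethanol 7 against 0 DAD. The share of calls that were higher then moved to 62.9% against 52.8%, and to 70.5% against 53.0%, and at 5 against 0 DAD to 65.7% against 50.6% in ethanol and 64.8% against 49.2% in water. In ethanol 7 against 5 DAD it moved to 77.0% against 62.8%.

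Of 51 correlations of same-numbered libraries, 6 exceeded 0.1, the highest at 0.28 between replicate 1 of ethanol 0 DAD and of water 0 DAD. Whether libraries of the same number were paired is not settled by these values, since no reference was set for them. With the replicate number as a block, 22 members were called between ethanol and water at 7 DAD, 24 in water and 13 in ethanol 7 against 0 DAD, 8 in water and 8 in ethanol at 1 DAD, and 9 in water and 11 in ethanol at 5 DAD. Members under 100 counts on average limit what low-level loci can show.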
